A study of Mus musculus with 12 samples.

Results

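The 10 genes described here encode RNA-binding proteins that shape splicing in neurons: Rbfox1, Rbfox2, Rbfox3, Nova1, Nova2, Elavl2, Elavl3, Elavl4, Ptbp2 and Srrm4. They were chosen by gene symbol from the 24100 genes of the count table, and all 10 passed the filter on low counts in each comparison. Neurons use an unusual range of exons, including very short microexons, and proteins of these families decide which exons are kept. RBFOX proteins bind UGCAUG in introns and act on ion channel and synaptic transcripts, NOVA proteins bind YCAY clusters, and the neuronal ELAVL (Hu) proteins bind U-rich stretches in introns and 3′ UTRs. PTBP2 holds back adult exons while neurons mature, and SRRM4 (nSR100) turns microexons on.

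RNA was sequenced from primary neurons of the entorhinal cortex (EC), taken from C57BL/6J mouse embryos at embryonic day 17 and grown in culture. DEK, a chromatin-binding nuclear protein, was lowered or raised with adeno-associated viruses (AAV1) added on day 7 in vitro, and RNA was collected 4 days later. Each of the 4 groups had 3 wells. The silenced wells received AAV1-mCherry-U6-mDEK-shRNA, a hairpin against Dek driven by the U6 promoter, and their controls AAV1-mCherry-U6-scrmb-shRNA, a scrambled hairpin in the same vector. The overexpressing wells received AAV1-hSyn1-mDEK-IRES-mCherry, with the Dek cDNA under the neuronal human synapsin 1 promoter, and their controls AAV1-hSyn1-mCherry-WPRE, an empty vector. All 4 groups therefore carried a virus and mCherry, but the scrambled hairpin and the empty vector differed in promoter and cassette. A single hairpin was used against Dek. The records do not say whether wells shared a dissection, so p-values measure the spread between wells, which may be technical. The counts are per gene, so the levels of the regulators were measured here and the splicing of their target exons was not.

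Library totals lay between 15679567 and 18933382 counts. Levels are given in CPM (TMM-scaled counts relative to sequencing depth) as the mean ± SD of 3 wells. Dek itself was at 7.60 ± 0.99 CPM in silenced, 36.1 ± 0.71 in scrambled, 144 ± 14.0 in overexpressing and 39.0 ± 2.51 in empty vector wells, so the libraries matched their labels. Markers of neurons were abundant in all 12 libraries: 8 pan-neuronal genes summed to between 7126 and 8514 CPM, against 1.14 to 3.95 CPM for 5 microglial genes. GABAergic markers summed to 1937 to 2738 CPM and excitatory markers to 296 to 543 CPM. Astrocyte markers (188 to 494 CPM), oligodendrocyte precursor markers (52.4 to 196 CPM) and progenitor markers (70.2 to 139 CPM) were also present. The RNA was therefore that of a mixed culture, in which fewer cells of a type and less RNA per cell cannot be told apart.

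The 3 genes with the largest falls in silencing, Rbfox2, Rbfox1 and Elavl4, held in their 3′ UTR the heptamer AAGAGGA, and the other 7 genes did not. This heptamer is part of the Dek sequence that the hairpin targets. Earlier work on these libraries singled it out by its values among all heptamers, so its presence in genes that fell is a description and not independent evidence. The matches are shown because they set these 3 genes apart from their own paralogues. They are given 5′ to 3′ as GENCODE vM21 transcript sequence, on the GRCm38 build, with the heptamer in capitals.
Dek, exon 6 of 11, chr13:47099381-47099387, minus strand: gcgaactcgtgAAGAGGAtcttgaacttct
Rbfox2, first match, chr15:77081788-77081794, minus strand: cacgcagggtgAAGAGGAcagtcccatggc
Rbfox2, second match, chr15:77084063-77084069, minus strand: atagcaagatgAAGAGGAaaacaaacaaaa
Rbfox1, chr16:7409987-7409993, plus strand: aaaattaaaaaAAGAGGAaaaattacattt
Elavl4, chr4:110205811-110205817, minus strand: cacacaaattaAAGAGGAataataaaaatt

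The coordinates are those of the 7 bases in capitals. The first Rbfox2 match shared an unbroken run of 10 bases with the Dek exon, GTGAAGAGGA, and the second a run of 9, while the matches in Rbfox1 and Elavl4 shared only the 7 bases. Dek also holds AAGAGGA in exons 2 and 7, outside the hairpin target. The first Rbfox2 match shared 10 bases with each of these sites too. The second shared 11 with the exon 2 site and 9 with the exon 7 site. On the transcript strand, AAGAGGA was present in 17.4% of 13474 tested genes with an annotated 3′ UTR, and in 46.2% of those with a 3′ UTR of 4000 to 8000 bases. The longest annotated 3′ UTRs of the 10 regulators ran from 1477 bases in Rbfox3 to 6701 bases in Nova2, with a median of 3054 against 1240 bases for all genes tested. Long 3′ UTRs without the heptamer were those of Nova2, Nova1 (5452 bases) and Srrm4 (5292 bases), and Rbfox2 (5172 bases) was of similar length. Among all tested genes the median log2 fold change (log2FC) in silencing was −0.19 with the heptamer and 0.03 without it. For 3′ UTRs of 1000 to 2000 bases the medians were −0.14 and 0.05, and for 4000 to 8000 bases −0.22 and −0.05. The heptamer was singled out by values of these same libraries, so these medians too are a description and not independent evidence.

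**Figure D1:**
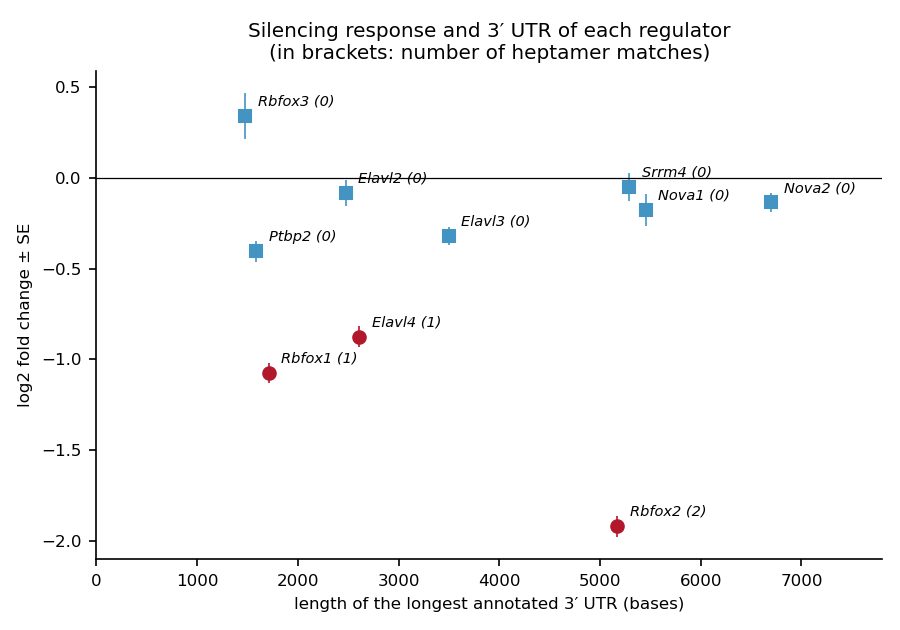
The log2FC of each regulator in Dek-silenced against scrambled wells (vertical axis, bars are SE) is plotted against the length of its longest annotated 3′ UTR in bases (horizontal axis). Red circles hold AAGAGGA, with the number of matches in brackets, and lie lowest; blue squares hold none, and range from −0.40 for Ptbp2 to 0.34 for Rbfox3.

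The first comparison asked how the regulators respond when Dek is silenced. Rbfox2, Rbfox1 and Elavl4 fell most, Ptbp2, Elavl3 and Nova2 fell by less, Rbfox3 rose, and Nova1, Elavl2 and Srrm4 did not pass the test. Thus 6 of the 10 fell and 1 rose at an adjusted p below 0.05 (edgeR quasi-likelihood test, adjusted over 14232 genes). Of all genes tested, 28.5% fell and 26.2% rose. The median log2FC of the 10 genes was −0.25, against −0.00 for all genes. Only 4.97% of the genes tested fell beyond a log2FC of −1, and Rbfox2 and Rbfox1 were among them. Scaling by library size alone moved the split of all calls, from 47.9% to 59.9% higher, with a shift of 0.10 in the median log2FC, and the directions of Elavl2 and Srrm4 turned with it (0.01 and 0.05).

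**Figure D2:**
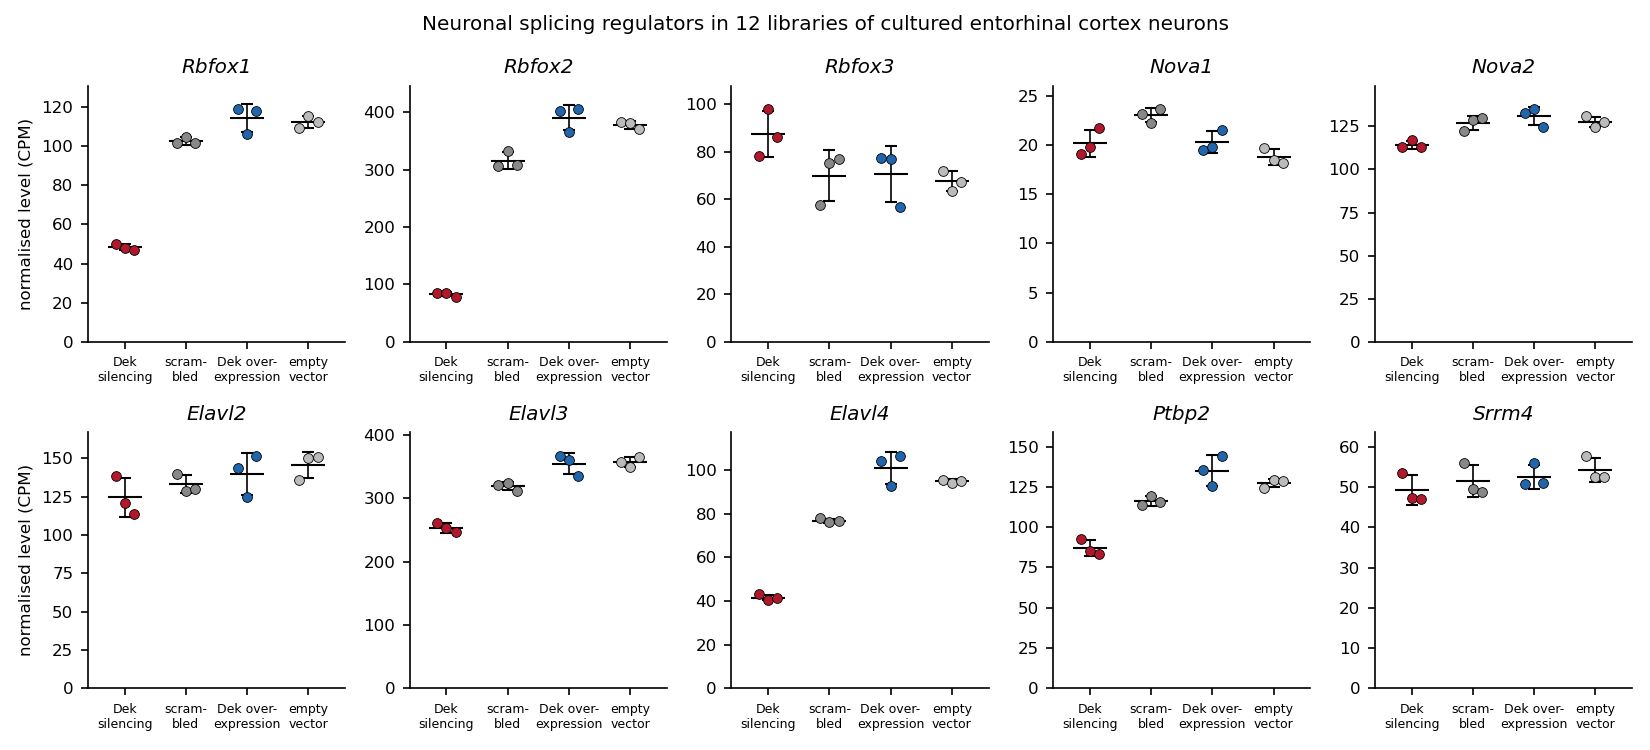
Levels of the 10 regulators in each of the 12 libraries (CPM, axes from 0; points are wells, lines the mean and bars the SD of 3 wells). In silenced wells Rbfox2 sits between 78.5 and 85.7 CPM, below all scrambled wells at 307 to 333 CPM, while Srrm4 overlaps between all groups.

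Rbfox2, the most broadly expressed RBFOX gene and a regulator of many neuronal and muscle exons, was at 84.4, 85.7 and 78.5 CPM in the silenced wells. It was at 307, 333 and 308 CPM in the scrambled wells. The groups did not overlap, and the level was 3.78-fold lower in silencing (log2FC = −1.92, SE 0.06, adjusted p = 9.65e-10). Its fall ranked 71st of 14232 genes. Against the empty vector wells, at 383, 381 and 370 CPM, the log2FC was −2.15 (SE 0.06).

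Rbfox1, linked in humans to epilepsy and autism, was at 50.2, 47.9 and 47.0 CPM in the silenced wells and at 102, 105 and 102 CPM in the scrambled wells. The silenced wells were at about the same level and all below the controls, by 2.11-fold (log2FC = −1.08, SE 0.06, adjusted p = 2.91e-08). The empty vector wells, at 109, 115 and 113 CPM, were 1.09-fold above the scrambled wells.

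Rbfox3 encodes NeuN, the nuclear antigen used to stain mature neurons. It was at 78.3, 97.8 and 86.1 CPM in the silenced wells against 57.4, 75.1 and 76.9 CPM in the scrambled wells. The lowest silenced well was just above the highest scrambled well, and the rise of 1.26-fold had an adjusted p of 0.0485 (log2FC = 0.34, SE 0.12, edgeR). The call was lost without silenced well 2 (log2FC = 0.25, adjusted p = 0.148), silenced well 3 (0.35, 0.117), scrambled well 1 (0.21, 0.0717) or scrambled well 2 (0.39, 0.0554). With low counts unfiltered the call was lost too (0.33, 0.113), as it was after a correction for GC content and length (0.22, 0.0732). Against the empty vector wells, at 72.0, 63.5 and 67.2 CPM, the rise was 0.41 (SE 0.08, adjusted p = 0.000774). It passed under all 15 alternatives tried but was smaller after the GC and length correction (0.18, adjusted p = 0.028).

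The unequal responses of the paralogues changed the make-up of the family. The RBFOX genes together summed to 219 ± 11.1 CPM in silenced and 488 ± 23.9 CPM in scrambled wells. Per length of the gene model, Rbfox2 made up 52.4 ± 1.23% of the family in scrambled and 28.1 ± 1.11% in silenced wells. Rbfox3 moved the other way, from 16.1 ± 1.97% to 41.5 ± 2.94%, and became the most abundant paralogue. The share of Rbfox1 was 31.5 ± 1.03% and 30.4 ± 1.94%, a difference within the spread between wells. With the longest transcript as the length, the shares of Rbfox3 were 21.8% and 49.9%, so the order of the paralogues was kept while the values moved. In the empty vector wells the shares of Rbfox1, Rbfox2 and Rbfox3 were 30.6%, 55.5% and 13.9%.

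**Figure D3:**
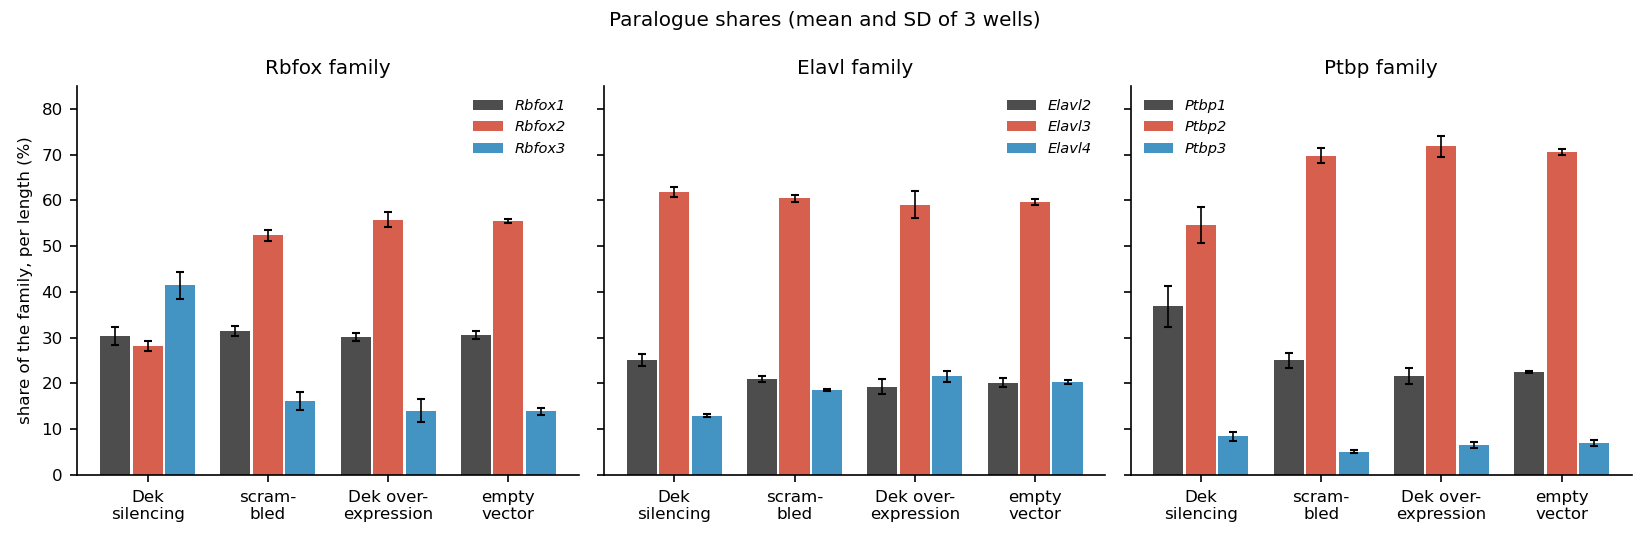
Share of each paralogue within the RBFOX, neuronal ELAVL and PTBP families (percent of the summed level per length; bars are the mean and error bars the SD of 3 wells). Rbfox3 is the largest RBFOX share in Dek-silenced wells (41.5%) and the smallest in the other groups, while Elavl3 stays the largest ELAVL share throughout.

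The NOVA genes, whose proteins are the antigens in an autoimmune ataxia, differed little between silenced and scrambled wells. Nova2, the main cortical paralogue, was at 113, 117 and 113 CPM in the silenced wells against 122, 129 and 130 CPM in the scrambled wells. The groups did not overlap but lay close, and the fall had an adjusted p of 0.0471 (log2FC = −0.14, SE 0.05, edgeR). This call was lost in 12 of 15 alternatives, including the fit without silenced well 1 (−0.12, adjusted p = 0.0911), 2 (−0.155, 0.0573) or 3 (−0.13, 0.0833) and without scrambled well 2 (−0.13, 0.149) or 3 (−0.12, 0.155). Nova1, more abundant in the hindbrain and spinal cord, was the least abundant of the 10, at 19.0, 19.8 and 21.7 CPM against 23.2, 22.3 and 23.6 CPM. Its log2FC was −0.18 (SE 0.09, adjusted p = 0.104). It passed without silenced well 3 (−0.23, 0.0495) and was at 0.08 after correction for GC content and length. Nova2 made up 85.6 ± 0.93% of the pair per length in silenced and 85.2 ± 0.58% in scrambled wells.

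The neuronal ELAVL genes also responded unequally. Elavl4 (HuD), which stabilizes transcripts of axon growth such as Gap43, was at 43.0, 40.5 and 41.2 CPM in the silenced and 77.9, 76.2 and 76.5 CPM in the scrambled wells. The wells of each group lay close together and apart from the other group, at a 1.83-fold lower level (log2FC = −0.87, SE 0.06, adjusted p = 1.88e-07). Elavl3 (HuC), found in nearly all neurons, was at 262, 252 and 246 CPM against 321, 324 and 312 CPM. Its fall was 1.25-fold, without overlap between groups (log2FC = −0.32, SE 0.05, adjusted p = 0.000139). Elavl2 (HuB), which appears early in neuronal differentiation, was at 139, 120 and 114 CPM against 140, 129 and 130 CPM. These groups overlapped (log2FC = −0.08, SE 0.07, adjusted p = 0.333), although Elavl2 passed without silenced well 1, its highest (−0.16, 0.036).

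The sum of the ELAVL genes was 419 ± 21.6 CPM in silenced and 529 ± 10.3 CPM in scrambled wells. Per length, Elavl4 went from 18.6 ± 0.25% to 13.0 ± 0.35% of the sum and Elavl2 from 20.9 ± 0.67% to 25.1 ± 1.35%. Elavl3 remained the largest share, at 60.5 ± 0.76% and 61.9 ± 1.11%. Elavl1 (HuR), the paralogue expressed in all tissues, was at −0.11 (SE 0.06, adjusted p = 0.144). Against the empty vector it was lower in silenced wells (−0.31, edgeR adjusted p = 0.00049, but 0.02 after correction for GC content and length). The scrambled wells were lower than the empty vector wells too (−0.21, edgeR adjusted p = 0.00635). Paralogues of the RBFOX, NOVA and ELAVL families share stretches of coding sequence, and how the estimated counts divided reads between them was not tested.

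Ptbp2 (nPTB), which takes over from PTBP1 as cells become neurons, was at 92.9, 85.3 and 83.2 CPM in the silenced and 114, 119 and 116 CPM in the scrambled wells. No silenced well reached the controls, and the fall was 1.32-fold (log2FC = −0.40, SE 0.06, adjusted p = 9.3e-05). After correction for GC content and length it was smaller but still passed (−0.25, adjusted p = 0.0012). Ptbp1, the paralogue of dividing and non-neuronal cells, rose from 21.6 ± 1.82 to 30.4 ± 4.05 CPM (log2FC = 0.51, SE 0.11, adjusted p = 0.00208). Ptbp3 rose from 6.97 ± 0.68 to 10.96 ± 1.39 CPM (log2FC = 0.66, SE 0.14, adjusted p = 0.00161). It was at 10.27 ± 0.99 CPM in empty vector wells, so its scrambled wells were low (log2FC = −0.55 against empty vector, edgeR adjusted p = 0.00344). Within the PTBP family the share of Ptbp2 per length was therefore 69.8 ± 1.64% in scrambled and 54.7 ± 3.94% in silenced wells.

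Srrm4, made almost only in neurons, was at 53.6, 47.3 and 47.1 CPM in the silenced and 56.0, 49.6 and 48.8 CPM in the scrambled wells. The groups overlapped, and the log2FC was −0.05 (SE 0.08, adjusted p = 0.608). Among the genes that work with it on microexons, Srsf11 fell (log2FC = −0.29, SE 0.06, adjusted p = 0.00253), Rnps1 was at −0.08 (adjusted p = 0.197), and its relative Srrm3 rose (log2FC = 0.23, SE 0.08, adjusted p = 0.0393). The call of Srrm3 was lost in 8 of 15 alternatives: unfiltered (0.215, adjusted p = 0.057), with the DESeq2 Wald test (0.24, 0.0607), after correction for GC content and length (0.126, 0.15), without silenced well 2 (0.18, 0.143) or 3 (0.20, 0.0956) and without scrambled well 1 (0.20, 0.101), 2 (0.24, 0.085) or 3 (0.23, 0.0867).

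Markers of several cell types moved in the same comparison, in which 28.5% of all genes fell and 26.2% rose. Of the 8 pan-neuronal genes, 5 fell and 0 rose, led by the neurofilament genes Nefm (log2FC = −2.41, SE 0.16) and Nefl (−2.27, SE 0.21), and the sum was 7126 to 7662 CPM in silenced against 8296 to 8390 CPM in scrambled wells. Of 5 oligodendrocyte genes, 4 rose and 1 fell, and their sum was 80.8 to 88.1 CPM against 30.8 to 41.1 CPM. In empty vector wells the sum was 45.0 to 46.0 CPM, above all scrambled wells. Mbp was at 17.9 CPM in silenced, 7.43 in scrambled and 19.7 in empty vector wells, and Cnp at 51.4, 21.4 and 18.3 CPM. Of 5 oligodendrocyte precursor genes 3 rose, and their sums overlapped (90.7 to 196 and 62.3 to 110 CPM), with medians of 179 and 101 CPM. None of 5 astrocyte genes passed, with sums of 252 to 494 and 255 to 451 CPM. Each of these precursor and astrocyte genes was lowest in well 1 of both groups, which widened the ranges. Olig1 was at 46.0, 107 and 112 CPM in silenced and 38.9, 62.8 and 66.4 CPM in scrambled wells. Slc1a3 was at 167, 308 and 321 CPM against 158, 239 and 280 CPM. Among excitatory markers 1 of 6 rose and 1 fell, among GABAergic markers 2 of 6 rose and 1 fell, and 1 of 6 progenitor markers rose. No microglial gene (4 tested) and no endothelial or fibroblast gene (3 tested) passed. The part of cell composition in the levels of the splicing regulators was not tested.

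The order of the regulators within a group was read per kilobase of gene model. In scrambled wells Elavl3 (46.3 ± 0.95 CPM per kb) and Rbfox2 (38.8 ± 1.85) were highest, followed by Rbfox1 (23.3 ± 0.43), Elavl2 (15.99 ± 0.70), Nova2 (15.1 ± 0.49) and Elavl4 (14.3 ± 0.17). Ptbp2 (12.7 ± 0.31) and Rbfox3 (12 ± 1.85) overlapped, and Srrm4 (5.93 ± 0.45) and Nova1 (2.63 ± 0.08) were lowest. In silenced wells Elavl3 was still highest (36.8 ± 1.13), but Rbfox2 had dropped to sixth place (10.2 ± 0.47). Rbfox3 (15.03 ± 1.68), Elavl2 (14.96 ± 1.54) and Nova2 (13.7 ± 0.27) came next, with overlap between neighbours. Rbfox2 overlapped with Ptbp2 (9.50 ± 0.56), and Elavl4 (7.72 ± 0.24) stood just above Srrm4 (5.69 ± 0.43). These lengths are those of all annotated exons joined, and the transcripts made in these cells may be shorter. With the longest transcript as the length the order differed. In scrambled wells Elavl3 (63.6 CPM per kb) and Rbfox2 (45.7) were again highest, but Ptbp2 (28.7) came before Rbfox3 (22.2) and Elavl4 (18.5), and Nova2 (15.1) after them. In silenced wells Elavl3 (50.5), Elavl2 (29.7), Rbfox3 (27.8) and Ptbp2 (21.5) were highest, and Rbfox2 (12) came after Rbfox1 (15.8) and Nova2 (13.7).

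The second comparison asked whether more Dek moves the same genes. It did not move any of them past the test: 0 of the 10 passed, and 0 had an unadjusted p below 0.05, where 930 of 14089 genes (6.6%) did. Of all genes tested, 0.0071% passed, which was Dek alone. The log2FC of the regulators lay between −0.05 for Elavl2 and 0.11 for Nova1, with SE of 0.05 to 0.10. Rbfox2 was at 402, 366 and 405 CPM in overexpressing and 383, 381 and 370 CPM in empty vector wells, which overlapped (log2FC = 0.05, SE 0.05, adjusted p = 0.908). Elavl4 was at 104, 92.9 and 107 CPM against 95.7, 94.0 and 95.2 CPM, again with overlap (log2FC = 0.09, SE 0.06, adjusted p = 0.837). DESeq2 also called 0 of the 10, and called 4 genes in all.

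The responses to silencing and to overexpression were then compared in 1 fit of all 12 libraries. The difference between them passed for 5 regulators, all lower in silencing, where 22.7% of 14604 genes were lower and 20.4% higher. It was −1.95 for Rbfox2 (SE 0.08, adjusted p = 5.27e-12) and −1.08 for Rbfox1 (SE 0.08, adjusted p = 7.31e-09). It was −0.95 for Elavl4 (SE 0.08, adjusted p = 5.71e-08), −0.47 for Ptbp2 (SE 0.08, adjusted p = 0.000192, and −0.287 after correction for GC content and length) and −0.29 for Elavl3 (SE 0.07, adjusted p = 0.00258). For Rbfox3 the difference was 0.29 (SE 0.19, adjusted p = 0.24), so a differing response was not shown. The changes in Dek were themselves of opposite sign and differed in size (log2FC of −2.23 and 1.89).

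**Figure D4:**
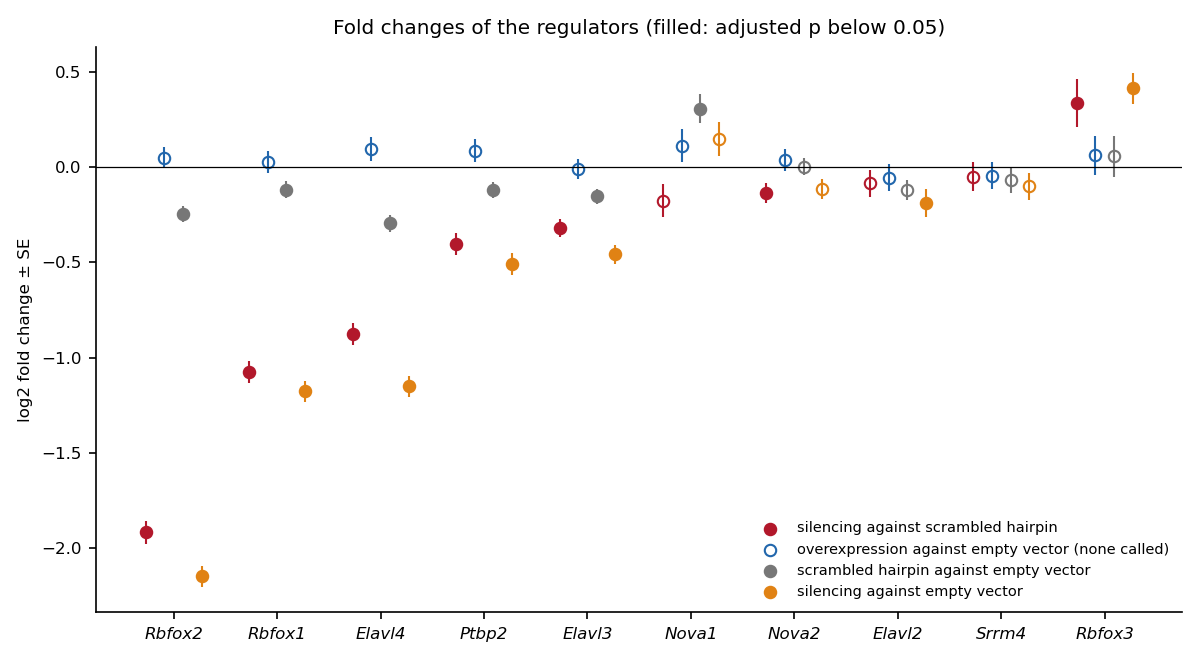
The log2FC (points, with SE as bars) of each regulator in 4 comparisons; filled points have an adjusted p below 0.05. Rbfox2, Rbfox1 and Elavl4 lie lowest in both silencing comparisons, and the overexpression points lie between −0.05 and 0.11.

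The 2 controls were also set against each other. Against the empty vector, the scrambled wells were lower for 5 regulators, where 21.8% of 14096 genes were lower, and higher for 1, where 21.3% were higher. Elavl4 was lower by a log2FC of −0.29 (SE 0.05, adjusted p = 0.00019), Rbfox2 by −0.25 (SE 0.04, adjusted p = 0.00038) and Elavl3 by −0.15 (SE 0.04, adjusted p = 0.00549). Rbfox1 (−0.12, adjusted p = 0.045) and Ptbp2 (−0.12, adjusted p = 0.0376) were near the threshold, and both were lost without any 1 of the 3 scrambled wells or without empty vector well 2 or 3 (adjusted p from 0.0568 to 0.165). Nova1 was higher, at 23.2, 22.3 and 23.6 CPM against 19.7, 18.4 and 18.2 CPM (log2FC = 0.31, SE 0.08, adjusted p = 0.0054). After correction for GC content and length none of the 5 lower calls passed, and Nova1 (0.67, adjusted p = 3.48e-05) and Nova2 (0.20, adjusted p = 0.00278) were higher. Elavl2 passed without scrambled well 1 (−0.16, 0.0198) or empty vector well 1 (−0.17, 0.0162), and Rbfox3 without scrambled well 1 (0.18, 0.0218).
Markers of cell types also differed between the controls. Of the excitatory markers 4 of 6 were lower in scrambled wells, with sums of 296 to 342 CPM against 490 to 524 CPM in empty vector wells. Of the GABAergic markers 5 of 6 were higher and 1 lower, with sums of 2430 to 2633 CPM against 2170 to 2227 CPM. Of the astrocyte markers 2 of 5 were higher, and their sums overlapped slightly (255 to 451 and 188 to 256 CPM). Of the pan-neuronal markers 3 of 8 were higher and 1 lower, and 1 of 5 oligodendrocyte precursor markers was higher. Lower were 1 of 4 oligodendrocyte markers tested, 1 of 6 progenitor markers and 2 of 4 endothelial or fibroblast markers tested. The vector, the hairpin and the composition of the wells cannot be told apart.

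Silenced wells were also set against the empty vector wells. Here 6 regulators were lower and 1 higher, where 33.5% of 14292 genes were lower and 34.0% higher. The values share the silenced wells with the first comparison and are not independent of it. Elavl4 was at −1.15 (SE 0.06), Rbfox1 at −1.18 (SE 0.06), Ptbp2 at −0.51 (SE 0.06) and Elavl3 at −0.46 (SE 0.05). Ptbp2 was closer to 0 after correction for GC content and length (−0.16, adjusted p = 0.0113). Elavl2 was at −0.19 (SE 0.07, adjusted p = 0.0362) but lost its call without silenced well 2 (adjusted p = 0.0972) or 3 (0.117) and without empty vector well 2 (0.112) or 3 (0.0791). Nova2 (−0.12), Nova1 (0.15) and Srrm4 (−0.10) did not pass, although Nova2 passed unfiltered (−0.15, adjusted p = 0.0338) and Nova1 with library size alone (0.22, adjusted p = 0.0436). With the GC and length correction Nova1 was at 0.75 (adjusted p = 1.34e-05), Nova2 at 0.17 (adjusted p = 0.0115) and Srrm4 at 0.18 (adjusted p = 0.0308), and Srrm4 was at −0.18 without silenced well 1 (adjusted p = 0.0383).

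RBFOX proteins work within a large assembly of splicing regulators (LASR), and 7 of its genes were followed. In Dek-silenced wells 4 of the 7 fell and 0 rose, where 28.5% of all genes fell and 26.2% rose. The median log2FC was −0.21, against −0.00 for all genes. Hnrnpul2 fell from 245 ± 3.98 to 66.8 ± 2.86 CPM (log2FC = −1.86, SE 0.06, adjusted p = 8.66e-10), close to the fall of Rbfox2. Hnrnpc (−0.29), Hnrnph1 (−0.29) and Matr3 (−0.21) fell by less, and with scaling by library size alone Hnrnpc was at −0.20 and Hnrnph1 at −0.19. The calls of Hnrnph1 (−0.13, adjusted p = 0.0667) and Matr3 (0.01, adjusted p = 0.812) were lost after correction for GC content and length, and that of Matr3 with scaling by library size alone (−0.11, adjusted p = 0.133). In overexpression 0 of the 7 passed.

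Of 23 related neural RNA-binding regulators, 10 rose and 3 fell in Dek-silenced wells, where 26.2% of all genes rose and 28.5% fell. Their median log2FC was 0.20, against −0.00 for all genes. Rest, the repressor that keeps neuronal genes silent in other cells and whose own transcript is a target of SRRM4, rose from 1.21 ± 0.22 to 3.10 ± 0.72 CPM (log2FC = 1.36, SE 0.26, adjusted p = 0.000932). The PTBP1 partners Raver2 (0.75) and Raver1 (0.57), the STAR protein gene Khdrbs2 (0.52), and Celf6 (0.58), Celf5 (0.43) and Rbm4 (0.39) rose as well. Mbnl2 (−0.68), a muscleblind protein of the adult brain, Celf1 (−0.44) and Khdrbs3 (−0.36) fell. Celf1 was at −0.245 after correction for GC content and length (adjusted p = 0.000906). In the empty vector contrast 10 of the 23 were higher and 7 lower in silenced wells, where 34.0% of all genes were higher and 33.5% lower. Ptbp1 (0.58, SE 0.10, and 0.38 after correction for GC content and length) and Rest (1.03, SE 0.24) were higher there too, whereas Ptbp3 (0.13, SE 0.13) and Celf5 (0.10, SE 0.05) did not pass. Each of these 2 passed under 1 alternative, Ptbp3 after correction for GC content and length (0.70, adjusted p = 0.000148) and Celf5 with library size alone (0.17, adjusted p = 0.0124). Both were lower in scrambled than in empty vector wells (log2FC of −0.55 for Ptbp3 and −0.34 for Celf5).

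**Figure D5:**
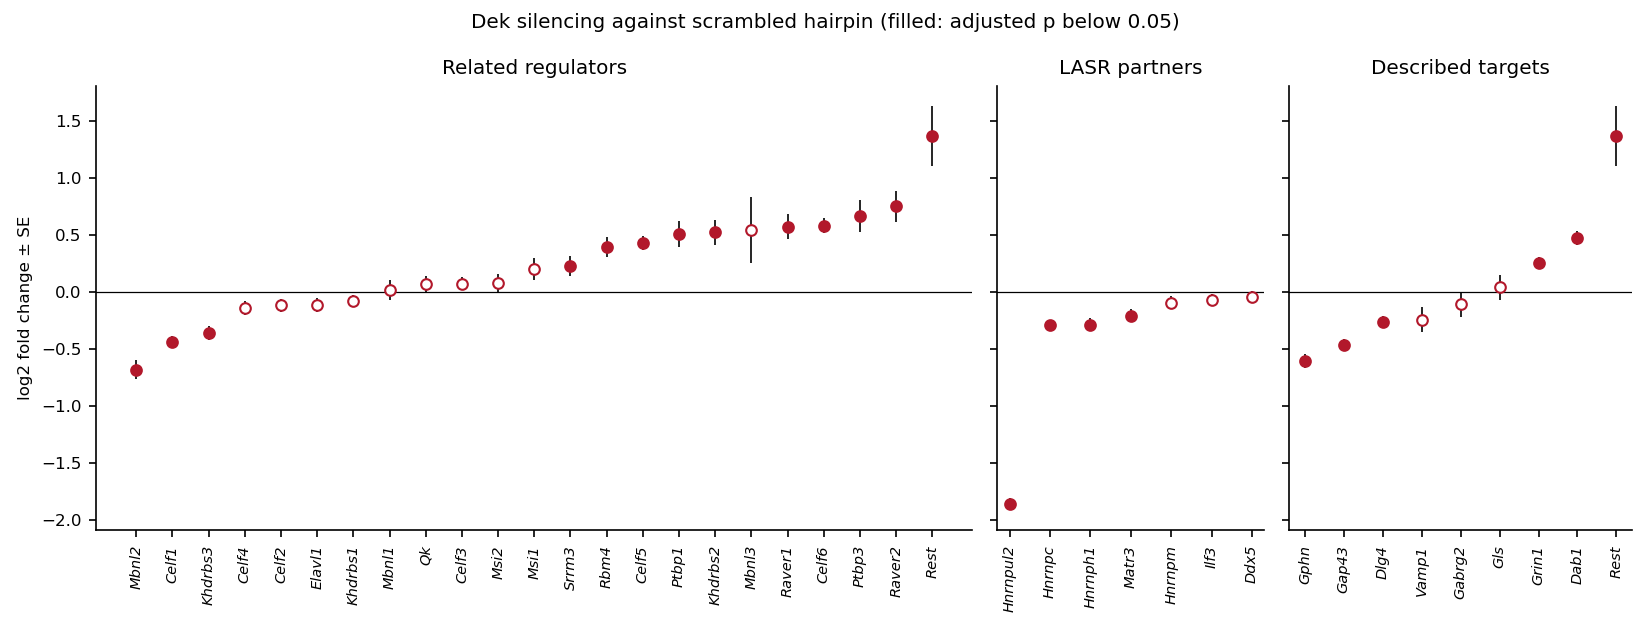
The log2FC (points, with SE as bars) in Dek-silenced against scrambled wells of 23 related regulators, 7 LASR genes and 9 described targets; filled points have an adjusted p below 0.05. Rest is highest at 1.36 in the lists that hold it, and Hnrnpul2 lowest at −1.86.

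Of 9 transcripts described as targets of these proteins, 3 rose and 3 fell, where 26.2% of all genes rose and 28.5% fell. Their median log2FC was −0.11. Gap43, the growth-cone transcript bound by HuD, fell from 1549 ± 41.2 to 1113 ± 62.8 CPM (log2FC = −0.46, SE 0.05, adjusted p = 9.32e-06). Gphn (gephyrin), which has NOVA-regulated exons and anchors inhibitory receptors, fell by 0.60 on the log2 scale. Dlg4 (PSD-95), whose mRNA is kept low by PTBP2 in immature neurons, fell by 0.26 (adjusted p = 0.000769), a call lost after correction for GC content and length (−0.11, adjusted p = 0.0854), and was at −0.16 with library size alone. Dab1 (0.47), a NOVA target of the reelin pathway, and Grin1 (0.25), an NMDA receptor subunit with regulated exons, rose. Gap43 was higher in scrambled than in empty vector wells (log2FC = 0.26), and in silenced against empty vector wells it was at −0.19 (SE 0.05, adjusted p = 0.00513), a call lost with library size alone (−0.12, adjusted p = 0.0547) and larger after correction for GC content and length (−0.47).

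Across the 12 libraries the levels of several regulators ran together. The Pearson r of log2 CPM was 0.998 between Rbfox1 and Rbfox2, 0.982 between Rbfox1 and Elavl4, and 0.985 between Elavl4 and Ptbp2. That of Rbfox3 with Rbfox2 was −0.671, and Nova1 was near 0 with Rbfox2 (0.012) and Rbfox1 (0.016). These values are descriptions over 12 libraries that fall into 4 groups, and the silenced wells lie apart from the others for the genes that fell. Of 11018 genes with a mean of at least 5 CPM, those most like Rbfox1 were Rtn4 (r = 0.999) and Fam49a (0.998), and those most like Rbfox2 were Fam49a and AI593442 (both 0.998). Elavl4 was most like Abi2 (0.998) and Eif3a (0.997), and Ptbp2 was most like Taok1 (0.995) and Klhl23 (0.994). Elavl3 was most like Ndrg1 (0.993), Nova2 like Pfkl (0.966), Elavl2 like Cmpk1 (0.949), Rbfox3 like Car11 (0.915) and Nova1 like Prdx1 (0.909). Srrm4 had the weakest match, with Whrn at 0.842.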

How the data were processed

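The values deposited by the authors are unnormalized estimated counts for each gene. The submitters' processing notes list Salmon, DESeq2 and mm10, with no versions, and the study's methods describe fastp and STAR 2.7.1a. Gene-level estimates divide reads between similar paralogues by model. All 12 columns and 24100 genes were read. The members and gene lists were chosen with earlier results of these data known. Estimated counts were rounded. In each comparison genes were kept by filterByExpr, library sizes scaled by TMM, and a robust quasi-likelihood fit was made (edgeR 4.0.16, R 4.3.3). Calls were made at 0.05 after Benjamini-Hochberg adjustment across the genes tested. CPM were scaled over all 12 libraries, and likeness used log2 CPM with a prior count of 2. Lengths, 3′ UTRs and matches came from GENCODE vM21 (GRCm38), to which 23779 genes were matched. The count model was tested on simulated data with few changed genes, where false calls were above the nominal share in each comparison simulated and small changes were recovered less often than large ones, so calls near the threshold are the least certain. No 2 libraries agreed within sampling noise.

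Genes named beyond the 10 belong to the lists of related regulators, LASR genes, microexon partners and described targets, to the marker lists, or to the 2 genes most alike each regulator. Alternatives were DESeq2 1.42.0 (size factors and Wald test), library size alone, no filter, at least 5 CPM in 3 libraries, limma 3.58.1 (voom), 1 fit of all libraries, the replicate number as a block, a correction for GC content and length, and leaving out each library. Tables and figures were made with Python 3.11.15, numpy 2.4.6, pandas 2.3.3 and matplotlib 3.10.9.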

Additional observations from a re-analysis of the deposited data

Results flagged for a closer look

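The response to Dek silencing differed from the response to Dek overexpression for 5 of the 10 regulators, by a test of the difference itself in a fit of all 12 libraries with edgeR. The difference in log2FC was −1.95 for Rbfox2, −1.08 for Rbfox1, −0.95 for Elavl4, −0.47 for Ptbp2 and −0.29 for Elavl3. Each kept its call and its direction under all 20 alternatives. Of 14604 genes tested, 22.7% were lower by the same test. The responses of these 5 regulators to overexpression alone lay between −0.01 (Elavl3) and 0.09 (Elavl4), so the differences were close to the falls in silencing. The silencing and overexpression arms used different vectors, and the same 5 were lower in scrambled than in empty vector wells in the main fit.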

How the results depend on the processing

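The falls of Rbfox2, Rbfox1, Elavl4, Elavl3 and Ptbp2 in silencing against scrambled kept their call in all 15 alternatives, with log2FC of −1.95 to −1.82, −1.10 to −0.98, −0.90 to −0.76, −0.34 to −0.22 and −0.45 to −0.25. Rbfox3 lost its call in 6 of 15 and Nova2 in 12 of 15. In overexpression against empty vector the genes called rose from 1 to 7 without a filter, 4 with DESeq2 and 2 with the GC and length correction, and lay between 1 and 7 when single libraries were left out; 0 regulators passed in each. The GC and length correction reduced the regulators called in scrambled against empty vector from 6 to 2. It also turned signs. In silencing against scrambled, Nova1 was at 0.0817, Elavl2 at 0.0374, Srrm4 at 0.0411, Elavl1 at 0.0264 and Matr3 at 0.0149. In silencing against empty vector, Nova2 was at 0.17, Srrm4 at 0.18, Elavl2 at 0.0926, Matr3 at 0.17, Dlg4 at 0.0727 and Elavl1 at 0.0217. In scrambled against empty vector, Ptbp2 was at 0.10, Srrm4 at 0.14, Elavl2 at 0.0625 and Rbfox3 at −0.0496; in overexpression Elavl3 was at 0.00961, and in the difference between responses Elavl2 was at 0.13. With library size alone, Elavl2 (0.0144) and Srrm4 (0.0491) turned in silencing, Nova2 (−0.0061) between the controls and Elavl2 (0.0713) in the difference. Nova2 between the controls was at −0.00026 with DESeq2, −0.00022 with its size factors, −0.0031 with at least 5 CPM and −0.000099 without a filter. In the difference, Elavl2 was at 0.0222 with at least 5 CPM and Srrm4 at −0.0157 without a filter. When single libraries were left out, the range included 0 for Srrm4 in silencing (−0.108 to 0.0106), for Rbfox1 (−0.00234 to 0.0766), Rbfox3 (−0.0138 to 0.193), Elavl2 (−0.116 to 0.0194) and Elavl3 (−0.0383 to 0.0272) in overexpression, for Rbfox3 (−0.0206 to 0.179) and Nova2 (−0.0168 to 0.0287) between the controls, and for Elavl2 (−0.0975 to 0.048) and Srrm4 (−0.0513 to 0.0744) in the difference. The cause of these shifts was not tested.

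Wells with the same replicate number deviated together in silencing and scrambled with r of 0.306, 0.137 and 0.069. Wells with different numbers gave r of −0.237 to 0.15, so number 1 lay above that range and numbers 2 and 3 within it. The records do not state a pairing, so the main test did not use the numbers. Whether same-numbered wells share a batch was not tested. With the replicate number as a block, 8620 genes and the same 7 regulators passed in silencing, 1 gene passed in overexpression, 4897 genes and 4 regulators between the controls (Rbfox1 and Ptbp2 lost), 9042 genes and 6 regulators in silencing against empty vector, and 6126 genes and 5 regulators in the difference. Depth limits genes of low level such as Rest, at 1.21 to 3.10 CPM in silenced and scrambled wells on average. Isoforms, which these gene counts do not separate, were not analysed here.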
